A study of Mus musculus with 12 samples.

Results

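The genes described are 10 genes of iron export, uptake, storage and sensing: Slc40a1, Cp, Heph, Trf, Tfrc, Slc11a2, Fth1, Aco1, Ireb2 and Hmox1. They were chosen by function around Slc40a1, and Slc40a1 itself was selected on its values in the 2 comparisons with saline, where its fall was already known. Those 2 differences are therefore given as a description, with no test. All 10 members were measured, each by 1 probe set that the platform annotation gives to that gene alone, among 21780 such probe sets for 19935 genes.

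RNA came from the striatum of male Swiss-Albino mice aged 2 months, and each of 12 Affymetrix Mouse Gene 1.0 ST arrays was hybridised with a pool from 4 animals. Induction comprised 6 trials on alternate days. In the morphine group (3 arrays), each trial was an injection of saline and then morphine at 20 mg/kg. In the butyrate-morphine group (3 arrays), sodium butyrate at 300 mg/kg, an inhibitor of histone deacetylases, took the place of the first saline injection. Saline mice (6 arrays) received vehicle alone during induction. Both morphine groups received a morphine challenge at 20 mg/kg after a pause of 7 days and were sampled 1 h after that injection. For the saline group the labels disagree: the source names give a saline challenge, while the protocol text gives morphine to every animal. A difference from saline thus includes the acute morphine challenge if the source names hold, and does not if the protocol text holds. Each array is a pool, so the spread between arrays is that between pools and not between mice.

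Iron leaves cells through ferroportin, the product of Slc40a1 and the known cellular iron exporter of mammals. Exported ferrous iron is oxidised by ceruloplasmin (Cp) or hephaestin (Heph) and is then carried by transferrin (Trf). Cells take up transferrin through the transferrin receptor (Tfrc), divalent metal transporter 1 (Slc11a2) moves the iron out of endosomes, and ferritin, with Fth1 as its heavy chain, stores it. Iron regulatory proteins 1 (Aco1) and 2 (Ireb2) bind iron-responsive elements in the transcripts of several of these genes when iron is low. In brain, ferroportin is known from endothelium, neurons and glia, and transferrin mRNA is made mainly by oligodendrocytes and choroid plexus.

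The deposited values are differences from a saline baseline, taken here as log2, so a value of -1 would be 0.5 of the baseline. They carry no expression level, and no member's level can be set against another's. The rounding of the values shows only that Trf, Tfrc, Fth1, Aco1 and Ireb2 were stored between 8 and 16 before centring, and Slc40a1, Cp, Heph, Slc11a2 and Hmox1 between 4 and 8. All 7 measured markers of striatal projection neurons were in the class from 8 to 16, which held 6796 of all 28815 rows. Saline arrays 1 and 2, 3 and 4, and 5 and 6 are mirror images that sum to 0 within 1e-06, so the 6 saline arrays hold 3 independent values. In the 6 arrays from morphine-treated mice, exact equalities with saline values (within 2e-07) numbered 72 with the pair of arrays 1 and 2, 2 with the pair of 3 and 4 and 0 with the pair of 5 and 6. The fit reported counts the 6 saline arrays as independent. Its p-values therefore tend to be too small and its intervals too narrow, in all 3 comparisons. If the pair of arrays 1 and 2 is also the baseline of the arrays from morphine-treated mice, the other saline arrays inform only the spread. The p-values against saline are then too small for that reason as well. Beside the calls against saline, the fit with saline arrays 1 and 2 alone is therefore given. Fewer cells of a type and less RNA per cell cannot be told apart in such pools.

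Slc40a1 was low in all 6 arrays from morphine-treated mice. Its saline values ran from -0.07 to 0.07. The morphine arrays stood at -0.48, -0.46 and -0.52, a mean of -0.49 ± 0.03 (SD, n = 3) or 0.713 of the saline level. The butyrate-morphine arrays stood at -0.40, -0.40 and -0.39, a mean of -0.40 ± 0.01 (SD, n = 3) or 0.760 of saline. No array of either group overlapped the saline arrays. In the order of all 21780 probe sets by difference from saline, Slc40a1 was the 15th lowest with morphine and the 14th lowest with butyrate-morphine. Both comparisons use the same saline arrays. With quantile normalization both values were -0.35.

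The 3 butyrate-morphine arrays all lay above the 3 morphine arrays for Slc40a1, a comparison that played no part in the choice of the gene. The difference was 0.09 (95% interval -0.0024 to 0.19) and did not pass the limma test (adjusted p = 0.579). Under quantile normalization it was 2.05e-04. In this comparison 0% of the 21780 probe sets passed an adjusted p of 0.05 (Benjamini-Hochberg over all of them), and 1898 had an unadjusted p under 0.05.

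**Figure D1:**
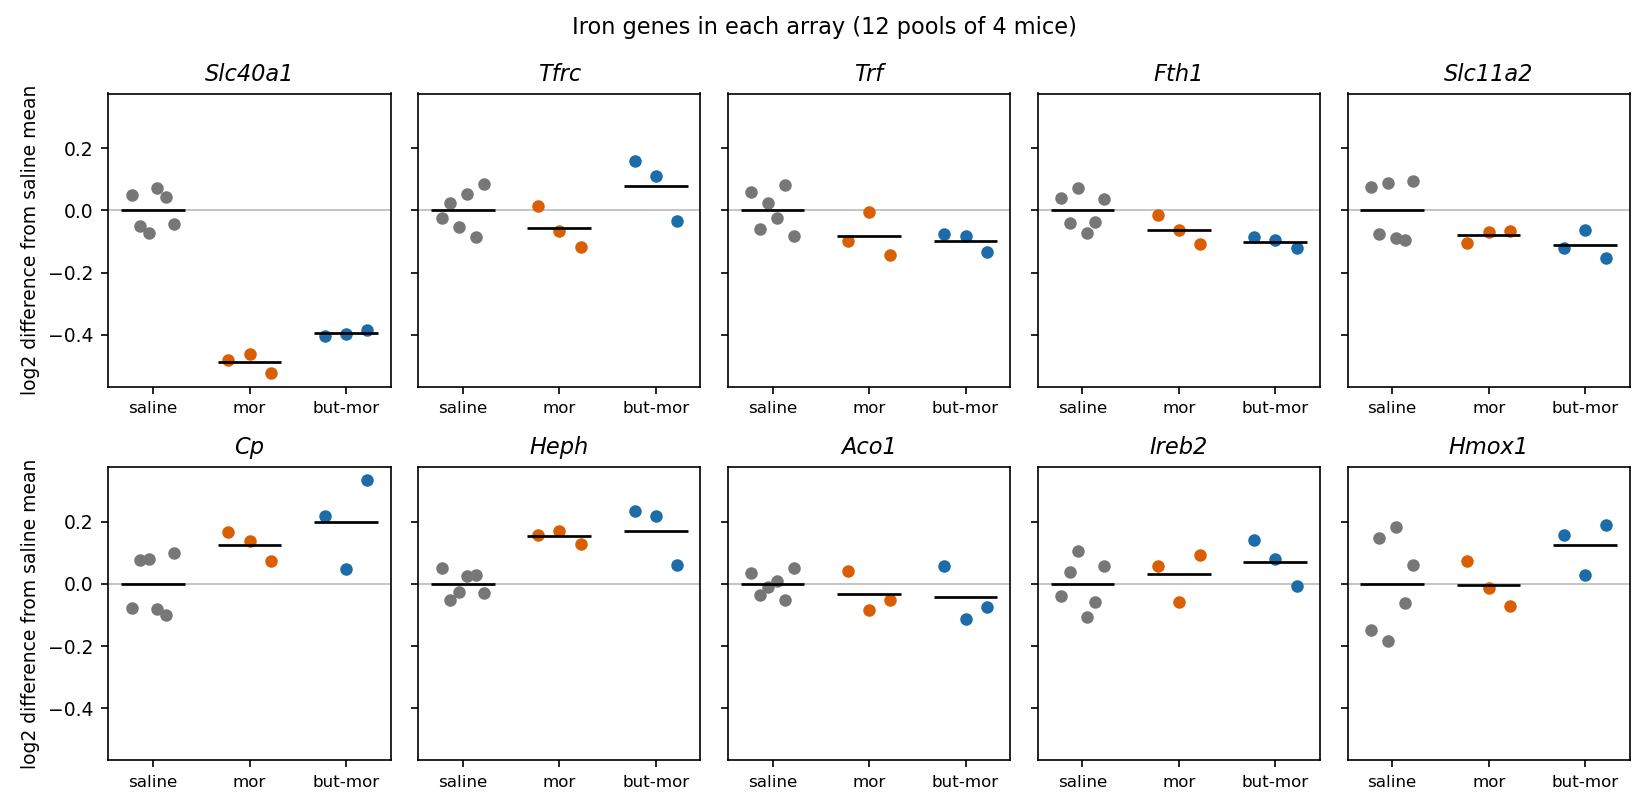
Each panel shows 1 of the 10 genes, with the log2 difference from the saline mean on the vertical axis and a point for each array (6 saline, 3 morphine, 3 butyrate-morphine), and bars at the group means. The morphine arrays of Slc40a1 lie between -0.52 and -0.46, apart from every saline array, whereas those of Hmox1 lie within the range of its saline arrays.

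Of the other 9 members, 0 passed the limma test in either comparison with saline. Over all probe sets, 2.45% passed with morphine and 2.35% with butyrate-morphine, so a count of 0 of 9 does not set these genes apart from the rest. Without adjustment, p was under 0.05 for 1 of the 9 with morphine and for 5 with butyrate-morphine, against 15.4% and 17.2% of all probe sets. Their median difference from saline was -0.03 with morphine, with 3 above and 6 below 0, against a median of -0.0033 over all probe sets. With butyrate-morphine it was 0.07, with 5 above and 4 below 0, against 0.0071 over all probe sets.

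Of the 2 ferroxidases that work beside ferroportin, neither passed the test against saline in either comparison. Hephaestin (Heph), a membrane-bound ferroxidase, had saline values from -0.05 to 0.05. Its morphine arrays stood at 0.16, 0.17 and 0.13, and its butyrate-morphine arrays at 0.23, 0.22 and 0.06. Both groups lay above every saline array, butyrate-morphine array 3 only narrowly. The mean difference was 0.15 ± 0.02 (SD, n = 3) with morphine and 0.17 ± 0.10 (SD, n = 3) with butyrate-morphine, which just missed the threshold in limma's test (adjusted p = 0.0795 and 0.052). Leaving out butyrate-morphine array 3 took both past it (limma, adjusted p = 0.0374 and 0.0121), the second with a difference of 0.23. Leaving out morphine array 2 took the second to an adjusted p of 0.0459 (limma). An array outside a comparison enters it only through the spread that the fit pools over all groups. Over all alternative settings Heph passed in 2 of 29 with morphine and in 6 of 29 with butyrate-morphine. With saline arrays 1 and 2 alone the adjusted p was 0.713 and 0.595 (limma).

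Ceruloplasmin (Cp), the ferroxidase of plasma and astrocytes, varied more between arrays. Its saline values ran from -0.10 to 0.10, its morphine arrays stood at 0.17, 0.14 and 0.07, and its butyrate-morphine arrays at 0.22, 0.05 and 0.33. Each group overlapped saline in 1 array. The mean difference was 0.13 ± 0.05 (SD, n = 3) with morphine and 0.20 ± 0.14 (SD, n = 3) with butyrate-morphine (limma, adjusted p = 0.386 and 0.13).

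Among the uptake genes, the transferrin receptor (Tfrc) differed most between the 2 morphine groups. Its saline values ran from -0.09 to 0.09. Its morphine arrays stood at 0.01, -0.07 and -0.12, and its butyrate-morphine arrays at 0.16, 0.11 and -0.03. The groups overlapped, since morphine array 1 lay above butyrate-morphine array 3. Butyrate-morphine was 0.14 above morphine (95% interval 0.01 to 0.26), with an unadjusted p of 0.0379 and an adjusted p of 0.54 in limma's test. Neither difference from saline passed the same test (adjusted p = 0.675 and 0.472).

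Transferrin (Trf), the iron carrier, had saline values from -0.08 to 0.08. Its morphine arrays stood at -0.10, -0.01 and -0.14, and its butyrate-morphine arrays at -0.08, -0.08 and -0.13. All 6 were below 0, but both groups overlapped saline. The mean difference was -0.08 ± 0.07 (SD, n = 3) with morphine and -0.10 ± 0.03 (SD, n = 3) with butyrate-morphine (limma, adjusted p = 0.404 and 0.277).

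Divalent metal transporter 1 (Slc11a2) was also below 0 in all 6 arrays. Its morphine arrays ranged from -0.10 to -0.07 and its butyrate-morphine arrays from -0.15 to -0.06, against -0.09 to 0.09 in saline. The mean difference was -0.08 ± 0.02 and -0.11 ± 0.05 (SD, n = 3 each), and neither passed (limma, adjusted p = 0.506 and 0.276).

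The ferritin heavy chain (Fth1), the subunit that oxidises iron as ferritin takes it up, had saline values from -0.07 to 0.07. Its morphine arrays stood at -0.01, -0.06 and -0.11, overlapping saline. Its butyrate-morphine arrays stood at -0.09, -0.10 and -0.12, all below saline. The mean difference was -0.06 ± 0.05 (SD, n = 3) with morphine and -0.10 ± 0.02 (SD, n = 3) with butyrate-morphine (limma, adjusted p = 0.492 and 0.202).

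The arrays of both iron sensors overlapped their saline arrays in each group. Aco1, iron regulatory protein 1, averaged -0.03 ± 0.06 with morphine and -0.04 ± 0.09 with butyrate-morphine (SD, n = 3 each). Ireb2, iron regulatory protein 2, averaged 0.03 ± 0.08 and 0.07 ± 0.07 (SD, n = 3 each). The limma adjusted p for these differences ranged from 0.546 to 0.864. Both proteins are controlled largely after translation, so their transcripts need not follow their activity.

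Heme oxygenase 1 (Hmox1), which releases iron from heme, had the widest saline spread of the 10, from -0.18 to 0.18. Its butyrate-morphine arrays stood at 0.16, 0.03 and 0.19, a mean of 0.12 ± 0.08 (SD, n = 3), and its morphine arrays at 0.07, -0.01 and -0.07, a mean of -0.0034 ± 0.07 (SD, n = 3). Neither difference from saline passed limma's test (adjusted p = 0.465 and 0.993), and the 0.13 between the morphine groups (95% interval -0.07 to 0.33) did not pass either (adjusted p = 0.742).

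**Figure D2:**
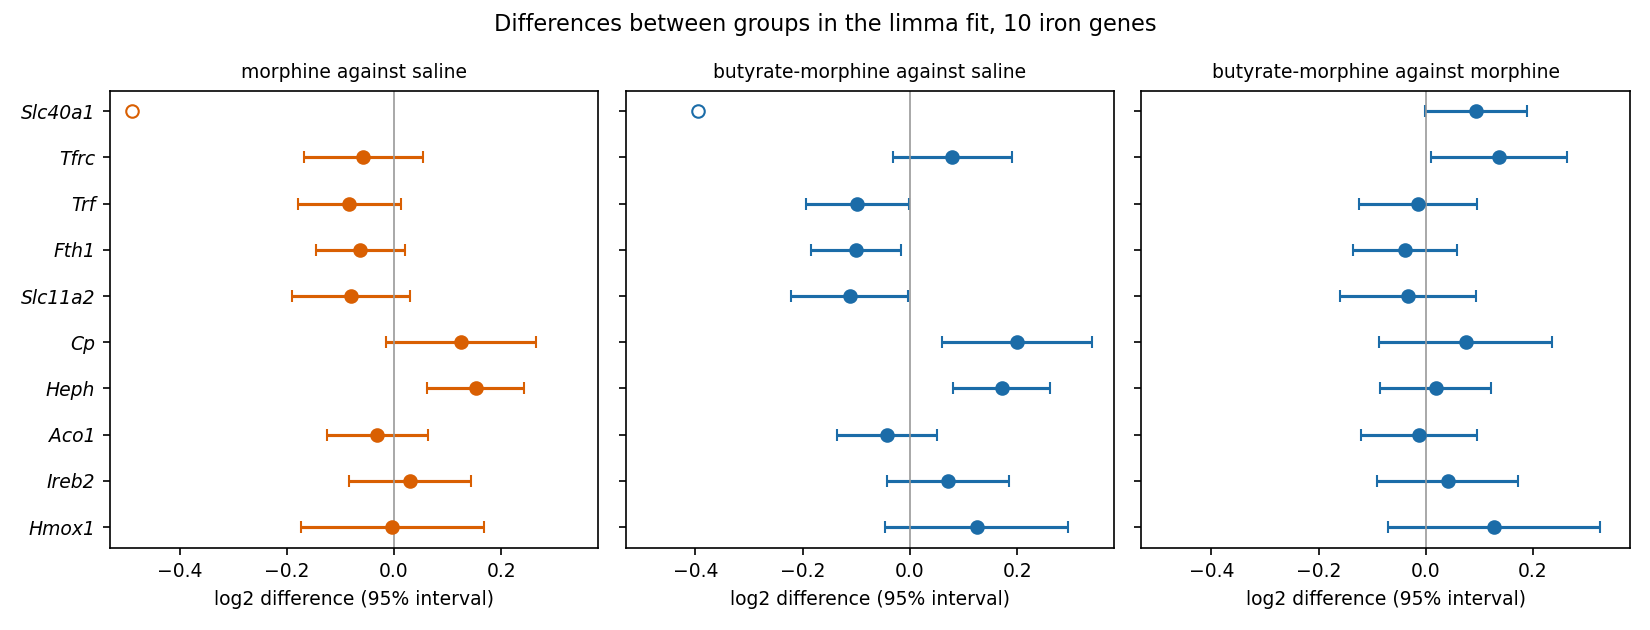
The 3 panels give, for each of the 10 genes, the log2 difference between groups in the limma fit, with 95% intervals as bars; the differences of Slc40a1 from saline are open points without a bar, since the gene was selected on them. Heph, at 0.15 and 0.17, has intervals above 0 in both saline panels, and the interval of Tfrc, from 0.01 to 0.26, lies above 0 in the third panel.

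Between the 2 morphine groups, 0 of the 10 members passed. Intervals were wide against the differences: for Cp the difference was 0.07 (95% interval -0.09 to 0.24), for Heph 0.02 (-0.09 to 0.12), for Trf -0.01 (-0.13 to 0.10) and for Fth1 -0.04 (-0.13 to 0.06). These intervals are not limits of detection, since the call also required an adjusted p under 0.05. They also count the mirrored saline arrays as independent. With mirror pairs counted once they were wider: -0.11 to 0.26 for Cp, -0.10 to 0.14 for Heph and -0.15 to 0.08 for Fth1. For Tfrc the interval of 0.01 to 0.26 lay above 0, yet its limma adjusted p was 0.54. The smallest difference detectable with 3 arrays a group was not tested.

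Other genes of iron handling were taken from 5 lists of 88 genes in all, of which 82 were measured. With morphine 3 of the 82 passed the test (1 higher, 2 lower), with butyrate-morphine 4 passed (3 higher, 1 lower) and between the morphine groups 0 passed. Over all 19935 genes the shares that passed were 2.66%, 2.48% and 0%, with 1719 genes at an unadjusted p under 0.05 (limma) in the last comparison. Counts as small as 3 and 4 of 82 do not set these genes apart from the rest. At an unadjusted p under 0.05 (limma) there were 16 of the 82 with morphine and 21 with butyrate-morphine, against 15.5% and 17% of all genes. The median difference over the 82 genes was -0.02 with morphine and 0.0051 with butyrate-morphine, against -0.0036 and 0.0063 over all genes. With saline arrays 1 and 2 alone, 0 of the 82 passed in limma's test against saline. With mirror pairs counted once, 0 passed with morphine and 1 with butyrate-morphine.

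Among 20 measured genes of the hepcidin pathway and ferroportin regulation, 0 passed with morphine and 1 with butyrate-morphine. That gene was Bmp2, a bone morphogenetic protein, which in liver is made by endothelium and drives hepcidin, the hormone that removes ferroportin from the membrane. Its saline values ran from -0.02 to 0.02. Its butyrate-morphine arrays stood at 0.48, 0.52 and 0.41, all above saline, and its morphine arrays at 0.28, 0.02 and 0.26, of which array 2 lay within the saline range.

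Bmp2 rose by 0.47 ± 0.06 (SD, n = 3) with butyrate-morphine, 1.39-fold (limma, adjusted p = 2.34e-04), while the 0.19 ± 0.15 (SD, n = 3) with morphine did not pass (adjusted p = 0.0767). Without morphine array 2 the morphine difference was 0.27 and passed (limma, adjusted p = 0.0027). Butyrate-morphine was 0.29 above morphine with no overlap between the groups, which did not pass the limma test of that difference (adjusted p = 0.235). With saline arrays 1 and 2 alone the adjusted p of the rise with butyrate-morphine was 0.0864 (limma).

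Of 8 genes of ferritin and its turnover, 1 passed with morphine and 0 with butyrate-morphine. Ftl1, the ferritin light chain, had morphine arrays at -0.13, -0.13 and -0.16, below every saline array (-0.01 to 0.01), and butyrate-morphine arrays at -0.09, 0.03 and 0.0021. It fell by 0.14 ± 0.02 (SD, n = 3) with morphine (limma, adjusted p = 0.0359; 0.576 with saline arrays 1 and 2 alone). The call was also lost without any 1 saline array and without morphine array 2 or 3 (limma, adjusted p = 0.0548 to 0.137). The difference between the morphine groups, 0.12, did not pass (limma, adjusted p = 0.388). A further 4 rows name Ftl1 together with other genes and were not used, so transcripts of near-identical copies may also hybridise to this probe set.

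Of 15 genes of other iron uptake and the reductases, 1 passed in each comparison with saline. Steap1, of the metalloreductase family, had morphine arrays at 0.11, 0.19 and 0.14 and butyrate-morphine arrays at 0.25, 0.15 and 0.09. Its saline arrays all lay between -0.0013 and 0.0013, far tighter than those of any of the 10 members. The rises of 0.15 ± 0.04 and 0.16 ± 0.08 (SD, n = 3 each) passed narrowly (limma, adjusted p = 0.0489 and 0.0337), and did not with saline arrays 1 and 2 alone (adjusted p = 0.631 and 0.56). They were also lost without any 1 saline array, the first without morphine array 2 or 3 or butyrate-morphine array 2 (limma, adjusted p = 0.0618 to 0.136 over these fits) and the second without butyrate-morphine array 1 or 2 (limma, adjusted p = 0.0558 to 0.149).

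Of 19 measured genes of heme and heme breakdown, 0 passed with morphine and 2 with butyrate-morphine. Abcg2, an efflux transporter of porphyrins and many drugs and a known protein of brain endothelium, had butyrate-morphine arrays at 0.19, 0.17 and 0.16, above saline (-0.04 to 0.04). It rose by 0.17 ± 0.02 (SD, n = 3; limma, adjusted p = 0.0087). Blvrb, biliverdin reductase B, had butyrate-morphine arrays at -0.36, -0.24 and -0.23, below saline (-0.13 to 0.13). It fell by 0.28 ± 0.07 (SD, n = 3; limma, adjusted p = 0.0464). With saline arrays 1 and 2 alone neither passed (limma, adjusted p = 0.332 and 0.512). Abcg2 was also lost without butyrate-morphine array 1 (limma, adjusted p = 0.0544), and Blvrb without any 1 butyrate-morphine array or any 1 saline array other than array 3 (limma, adjusted p = 0.0649 to 0.186).

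Of 20 measured genes of mitochondrial iron and iron-sulphur clusters, 1 passed with morphine and 0 with butyrate-morphine, and 18 and 12 of the 20 had values below 0, against 52.2% and 46.4% of all genes. Bola3, an assembly factor of iron-sulphur clusters, had morphine arrays at -0.17, -0.14 and -0.11 and butyrate-morphine arrays at -0.09, -0.12 and -0.17, all below saline (-0.05 to 0.05). Its fall of 0.14 ± 0.03 (SD, n = 3) with morphine passed (limma, adjusted p = 0.0391; 0.53 with saline arrays 1 and 2 alone), and the -0.13 ± 0.04 (SD, n = 3) with butyrate-morphine did not (adjusted p = 0.0586). The call with morphine was also lost without any 1 morphine array, any 1 saline array other than array 5, or butyrate-morphine array 2 (limma, adjusted p = 0.0503 to 0.0817).

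**Figure D3:**
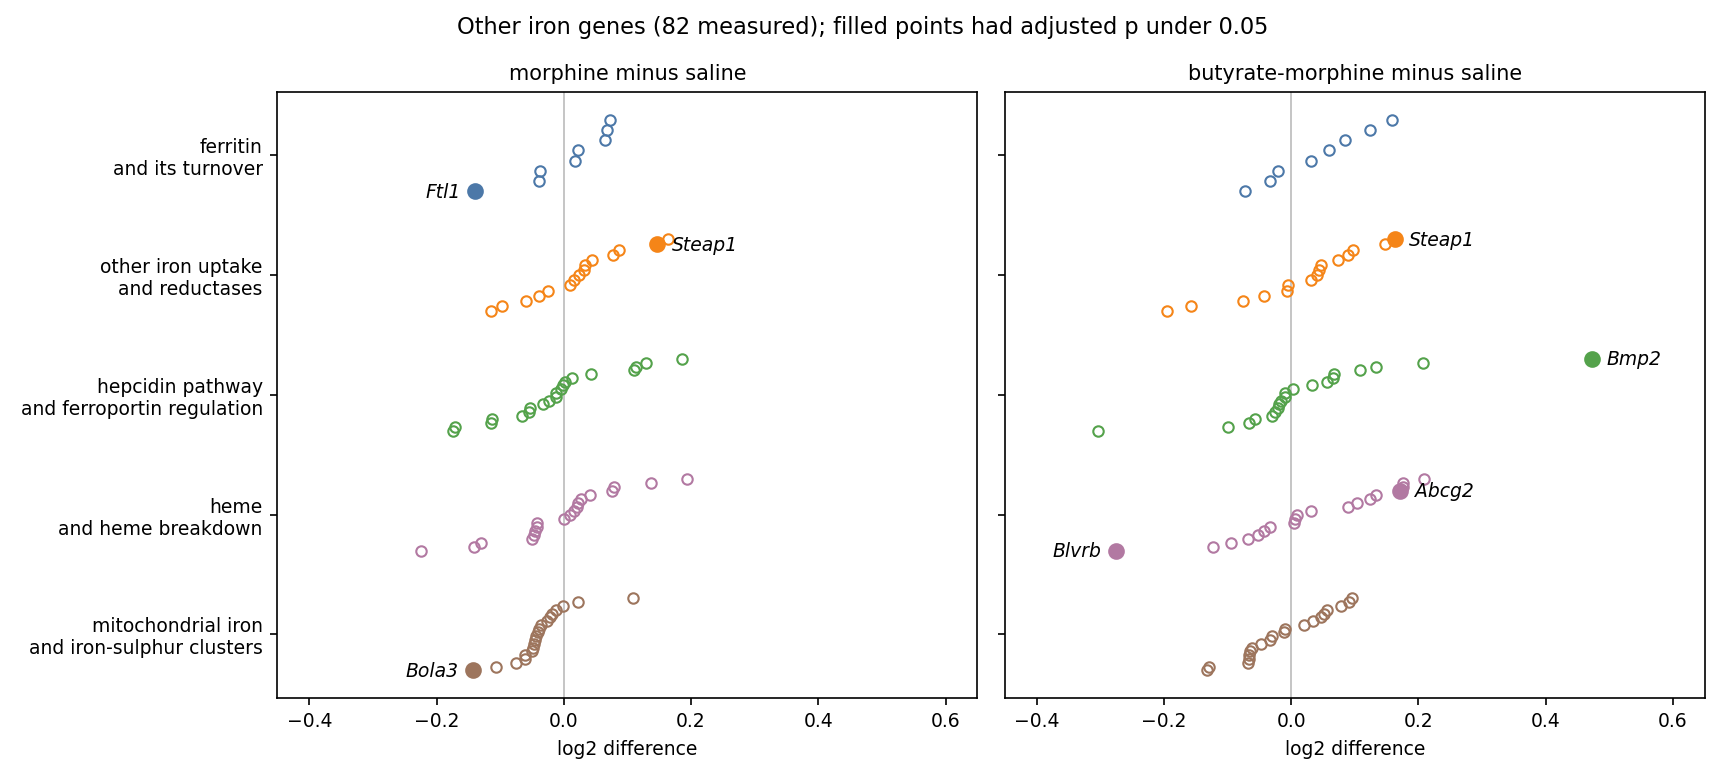
Each point is 1 of the 82 other iron genes, placed by its log2 difference from saline (horizontal axis) and by list (vertical axis), with morphine on the left and butyrate-morphine on the right. Filled, named points passed an adjusted p of 0.05; Bmp2 with butyrate-morphine, at 0.47, lies farthest from 0.

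Some marker lists of cell types differed from saline in the morphine and butyrate-morphine arrays, where Slc40a1 was low. Those of oligodendrocytes and blood held no marker that passed. Over all genes, 2.66% passed with morphine and 2.48% with butyrate-morphine. Choroid plexus markers, of which Ttr and Kcnj13 are defining, rose in 10 of 10 with morphine and in 8 of 10 with butyrate-morphine, and the list's mean per array ran from 1.11 to 1.33, from 0.801 to 1.08 and, in saline, from -0.114 to 0.114. Cp and Trf are known to be expressed there. Of the 10 endothelial markers 4 fell (Kdr, Cldn5, Tek and Flt1) and 1 rose (Slc2a1) in each comparison, with list means from -0.235 to -0.183 and from -0.17 to -0.07. Of 9 measured markers of microglia and macrophages, cells that recycle iron through ferroportin, 3 fell with morphine (Cx3cr1, Itgam and P2ry13) and 2 with butyrate-morphine (Cx3cr1 and P2ry13), with list means from -0.252 to -0.164 and from -0.197 to -0.149.

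Of 9 measured oligodendrocyte markers 0 passed in either comparison (limma, with 1 and 2 at an unadjusted p under 0.05). Of 9 astrocyte markers 1 passed in each, Gjb6, which rose. At an unadjusted p under 0.05 (limma) there were 3 astrocyte markers with morphine, Slc1a2 lower and the rest higher. With butyrate-morphine there were 5, S100b lower and the rest higher. The astrocyte list means ran from 0.0609 to 0.113 and from 0.0648 to 0.14, above saline (-0.0428 to 0.0428). Striatal projection neuron markers fell in 2 of 7 with morphine (Drd2 and Pde10a) and in 0 with butyrate-morphine (limma). At an unadjusted p under 0.05 there were 6 of 7 with morphine, all lower, and 2 with butyrate-morphine, Pde10a lower and Ppp1r1b higher. Over all genes, 15.5% and 17% had an unadjusted p under 0.05 in these comparisons (limma), so the oligodendrocyte counts lie near that share. Glucocorticoid-responsive genes rose in 9 and 11 of 11 measured, and 2 measured blood markers did not pass. With saline arrays 1 and 2 alone, 7 and 4 choroid plexus markers rose, 2 and 1 endothelial markers fell and 1 and 1 rose (limma). In the same fit 1 and 1 microglial markers fell and 5 and 6 glucocorticoid-responsive genes rose. The astrocyte marker passed with morphine and not with butyrate-morphine, and 0 striatal projection neuron markers passed. No list can be said to be unchanged, given 3 arrays in each morphine group and the uncertain saline baseline. The part of cell makeup in the values of Slc40a1 and the other iron genes was not tested.

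**Figure D4:**
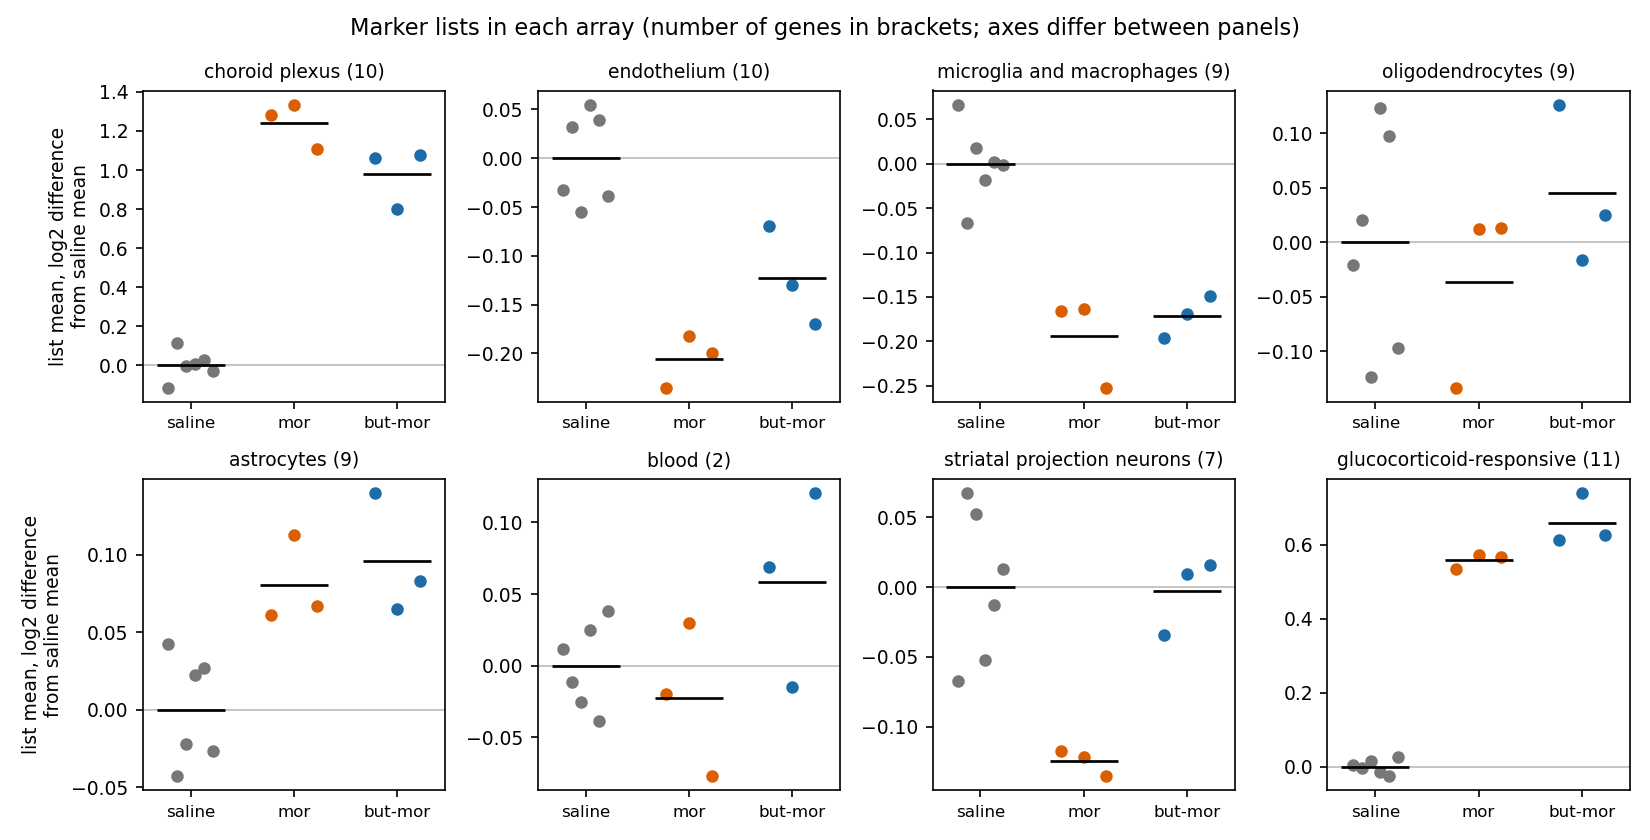
Each panel gives the mean log2 difference from saline over 1 marker list (vertical axis) in each of the 12 arrays, with bars at the group means; the axes differ between panels. The choroid plexus means of the morphine arrays, from 1.11 to 1.33, lie far above saline, and the microglia and macrophage means lie below saline in both morphine groups.

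Probe sets were ranked by positive correlation with Slc40a1 over the 12 arrays, leaving out predicted and clone-named genes and olfactory and vomeronasal receptors. The highest were those of Calm3 (a calmodulin gene, Pearson r = 0.977), Id3 (an inhibitor of basic helix-loop-helix factors, 0.970), Gbp4 (an interferon-induced guanylate-binding protein, 0.968), Cavin3 (a caveolar coat protein, 0.961) and Sting1 (the sensor adaptor of cyclic dinucleotides, 0.957). The arrays share the group differences and the mirrored saline values, so these coefficients describe the pattern and have no p. The sizes differed: Calm3 averaged -0.09 and -0.07 with morphine and butyrate-morphine, Gbp4 -0.44 and -0.39, Cavin3 -0.31 and -0.26, and Sting1 -0.26 and -0.29. Id3 stood at -0.37, -0.37 and -0.39 in the morphine arrays and at -0.21, -0.26 and -0.24 in the butyrate-morphine arrays. As for Slc40a1, all its butyrate-morphine arrays lay above all its morphine arrays. Those of Calm3 did so by a very small margin (lowest butyrate-morphine -0.078577, highest morphine -0.078598). These genes were picked by correlation over the same arrays, so a shared order is partly built in.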

How the data were processed

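The authors deposited 1 table of log differences from a saline baseline for 28815 probe sets and 12 arrays, taken here as log2. Neither the log base nor the steps from scanner signal to table is given in the sources used here. Direction was taken as deposited. The columns of per-sample values not used numbered 0. Probe sets with exactly 1 gene symbol in the platform annotation were tested (21780; 1605 rows had several symbols and 5430 none). No probe build is named, so no coordinates are given.

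The fit used limma 3.58.1 under R 4.3.3 (lmFit and eBayes, 3 group means, all 12 arrays, 9 residual and 3.87 prior degrees of freedom), with Benjamini-Hochberg adjustment over all probe sets at 0.05. Values are group means ± SD with 95% intervals of differences. For the other iron genes and the markers, probe sets of 1 gene were averaged, with p adjusted over 19935 genes. The number of arrays limits the precision, and the residual degrees of freedom count the mirrored saline arrays as independent. The procedure was tested on simulated data with 12 independent arrays. That simulation held no mirrored saline pairs and no shared baseline, so it cannot check the calls against saline.

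The members and lists were chosen with earlier results of these data known. Named were all members, up to 6 genes per other iron list past the threshold in any comparison, and the 5 probe sets with the highest positive correlation with Slc40a1. That ranking left out predicted and clone-named genes and olfactory and vomeronasal receptors. Marker genes were named after seeing their values. Alternatives were other normalizations, filters, variance models, thresholds, sets of saline arrays and left-out arrays, and the replicate number as a block. The fits on saline arrays 1 and 2 alone, with the marker counts they give, and with the error of that baseline were added after seeing the data.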

Additional observations from a re-analysis of the deposited data

How the results depend on the processing

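Calls against saline depended on which saline arrays and which spread the fit used. The number of probe sets past the threshold with morphine and with butyrate-morphine, 534 and 512 in the fit reported, was 37 and 37 with saline arrays 1 and 2 alone, 48 and 48 with mirror pairs counted once and the error of that baseline, 146 and 171 with mirror pairs counted once, 146 and 157 without saline arrays 1 and 2, 161 and 196 without 3 and 4, and 196 and 198 without 5 and 6. It was 290 and 361 against 0, 70 and 97 with quantile normalization, 212 and 186 for stored values of 8 or more, 222 and 218 with a trended robust spread, 443 and 1134 on the groups compared alone, 439 and 978 with array weights, 151 and 168 at 0.01, and 1015 and 1108 at 0.1. Leaving out 1 array gave 219 to 1092 and 206 to 807. Of the 82 other iron genes, 3 and 4 in the fit reported, the same settings in the same order gave 0 and 0, 0 and 1, 0 and 1, 0 and 1, 0 and 2, 1 and 2, 1 and 4, 0 and 1, 1 and 0, 0 and 2, 2 and 7, 2 and 9, 0 and 2, and 7 and 9; leaving out 1 array gave 0 to 4 and 1 to 6. All rows gave 2 and 3, and median centring 2 and 5. Between the morphine groups, all rows gave 2 probe sets, array weights 1, and leaving out 1 array 0 to 27 (27 without morphine array 1, 12 without morphine array 3); the other settings gave 0, and the other iron genes 0 throughout.

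The labels say nothing of pairing by replicate number. Same-numbered morphine and butyrate-morphine arrays correlated at -0.105, -0.267 and -0.226 in their deviations from the group mean. Same-numbered saline and morphine arrays correlated at -0.0018, -0.178 and 0.202. Deviations within a group sum to 0, so these values cannot settle whether the arrays were paired. With the replicate number as a block, 49 and 38 probe sets and 0 and 0 of the other iron genes passed against saline, and 0 between the morphine groups.

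Slc40a1 was below saline in all alternatives, from -0.50 to -0.35 with morphine and from -0.41 to -0.35 with butyrate-morphine. Of the other 9 members only Heph passed in any alternative, in 2 of 29 with morphine and 6 of 29 with butyrate-morphine. Both counts include the looser threshold of 0.1 applied to the fit reported, where its limma adjusted p was 0.0795 and 0.052. The adjusted p ranged from 0.0231 to 0.673 for Ftl1 with morphine, over its 29 alternatives, and from 7.07e-06 to 0.0864 for Bmp2 with butyrate-morphine. The cause of these changes was not tested.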
